A study of Homo sapiens with 6 samples.

Results

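The genes described here are the interleukin-17 (IL-17) ligands IL17A, IL17B, IL17C and IL17D, the receptors IL17RA, IL17RB, IL17RC, IL17RD and IL17RE, and TRAF3IP2, which encodes the adaptor ACT1. They were chosen by gene name, and these 10 genes were all found among the 58735 genes of the count table. Expression was measured by RNA-seq in A549, a human lung carcinoma cell line. Control cells (labelled A549e) carried an empty lentiviral vector, and IL17D-overexpressing cells (labelled A549IL17D) carried the same vector with the IL17D open reading frame, which the study amplified from cDNA of H82, a small-cell lung cancer line. The vector, pCCL.PPT.hPGK.IRES.GFP/pre, is named for a human PGK promoter and a GFP marker behind an internal ribosome entry site, so both groups had gone through lentiviral transduction. Each group had 3 libraries, and the sources used here do not say whether these came from separate transductions, clones or cultures. The p-values therefore measure the spread between these libraries, which may be technical. The comparison asks whether a cell that makes a large amount of the ligand IL17D also differs in the genes for the other ligands, the receptors and the adaptor of the family.

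IL-17 ligands are secreted proteins that work as dimers and bind pairs of single-pass membrane receptors. IL17RA is the shared chain: it pairs with IL17RC for IL-17A and IL-17F, with IL17RB for IL-25 and with IL17RE for IL-17C. The intracellular SEFIR domain of the receptors recruits ACT1 through the SEFIR domain of ACT1 itself, and ACT1 passes the signal to TRAF proteins, NF-κB, MAP kinases and proteins that stabilise cytokine mRNAs. IL17RD (SEF) also restrains fibroblast growth factor signaling. In the airway, IL-17A comes mainly from T cells and other lymphocytes and acts on epithelial cells, whereas IL-17C is made by epithelial cells themselves. CD93, a membrane glycoprotein best known from endothelial cells, has been reported as a receptor for IL-17D. It was therefore read beside the members, together with the ligands IL17F and IL25.

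The libraries held 14434394 to 16250385 counts on genes in control cells and 14319398 to 16521021 in IL17D-overexpressing cells, and 15754 genes passed edgeR's filter on low counts and were tested. Counts relative to the library total (CPM) are given after TMM scaling, with factors of 0.997 to 1.004. A count of 0 in a library allows up to 3 counts, or 0.182 to 0.210 CPM, and such limits cover counting error only. Of the cell type markers read, KRT8 (7187 to 7764 CPM) and KRT18 (3497 to 3710 CPM) were abundant, as epithelial cells have them, but the epithelial markers EPCAM (0.621 to 1.30 CPM) and KRT19 (0.184 to 0.667 CPM) were near absent, and CDH1 (32.3 to 46.1 CPM) lay between. CDH1 fell by 0.28 on the log2 scale in IL17D-overexpressing cells (adjusted p = 0.0306 by edgeR), and its part in the results on the family was not tested. The 5 leukocyte markers summed to 0.743 to 1.48 CPM in control and 0.838 to 1.64 CPM in IL17D-overexpressing libraries, and PTPRC and CD3E were at 0 in every library. The 4 endothelial markers summed to 0.346 to 0.433 CPM in control and 0.0698 to 0.605 CPM in IL17D-overexpressing libraries, with TEK at 0 in every library. The 3 fibroblast markers summed to 22.3 to 24.3 CPM in control and 19.3 to 23.8 CPM in IL17D-overexpressing libraries. Almost all of this was COL1A1 (19.2 to 24.2 CPM), while COL3A1 (0.0614 to 0.485 CPM) and DCN (0 to 0.0621 CPM) were near absent.

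Of the 10 members, 7 passed the filter on low counts (IL17D, IL17RA, IL17RB, IL17RC, IL17RD, IL17RE and TRAF3IP2), and 3 ligands did not (IL17A, IL17B and IL17C). IL17D was the only member called, which means an adjusted p under 0.05 from the quasi-likelihood test of edgeR, Benjamini-Hochberg adjusted over all tested genes. Of all tested genes, 1.58% were called by the same rule. The other 6 tested members were not called: 2 had a higher and 4 a lower estimate in IL17D-overexpressing cells, their log2 fold changes ran from -0.36 to 0.08, and their median was -0.12, against -0.00044 over all tested genes. At an unadjusted p under 0.05, 1 of these 6 (IL17RC) passed in edgeR, in DESeq2's Wald test and in limma voom alike, and 11.6% of all tested genes passed in edgeR.

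**Figure D1:**
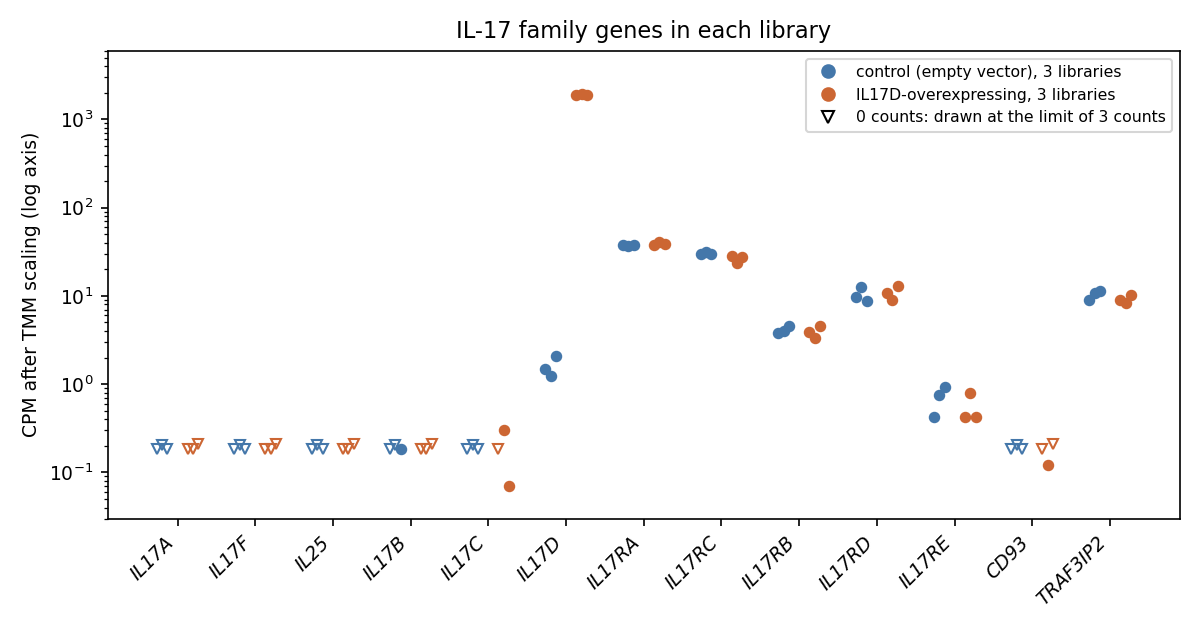
CPM after TMM scaling (log axis) of each IL-17 family gene, with 1 point per library, control in blue and IL17D-overexpressing in orange; open triangles mark libraries with 0 counts and are drawn at the limit of 3 counts. IL17D separates the groups widely, at 1.24 to 2.11 CPM in control and 1872 to 1952 CPM in IL17D-overexpressing libraries, while IL17A, IL17F and IL25 had no count and the points of the receptors and TRAF3IP2 lie at like heights in both groups.

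IL17D lies on the plus strand of chromosome 13 (ENSG00000172458, 20702127 to 20723098 of GRCh38, GENCODE 29). Its native open reading frame has 609 bases. The primer that the study lists for the vector adds a FLAG tag directly after the start codon, so the vector's frame is longer than the native one. The first 90 bases of the native coding sequence in GENCODE 29 (transcript ENST00000304920.3) are shown as the start of the gene that was overexpressed, with the start codon in capitals. They are the reference sequence and do not hold the tag.
IL17D native coding start: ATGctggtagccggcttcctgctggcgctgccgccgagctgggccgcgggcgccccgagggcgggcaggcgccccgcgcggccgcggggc
IL17D had 24, 18 and 34 counts in the control libraries (replicates 1, 2 and 3, an order kept throughout) against 31274, 32155 and 26772 in the IL17D-overexpressing libraries. In CPM these were 1.47, 1.24 and 2.11 against 1897, 1952 and 1872. The lowest IL17D-overexpressing library thus stood far above the highest control library, and every control library had reads on the gene above the limit of 3 counts. Control cells had a mean of 1.61 ± 0.449 CPM and IL17D-overexpressing cells one of 1907 ± 40.5 CPM (SD, n = 3 each). The control mean was 0.0843% of the IL17D-overexpressing mean. The paper describes A549 as not expressing IL-17D of its own, and its western blots placed A549 among lines with little or no detectable protein. The control reads here are of RNA, and their source was not tested. The log2 fold change was 10.19 (SE 0.0616, 95% interval 10.08 to 10.33, adjusted p = 2.47e-47 by edgeR). This rise checks the labels and is what the vector was made to do.

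The IL17D message took 0.190%, 0.195% and 0.187% of all counted reads in IL17D-overexpressing replicates 1, 2 and 3, or 1 in 525 reads on average. In control replicates 1, 2 and 3 it took 0.000148% (exact Clopper-Pearson 95% interval 9.46e-05 to 0.000220), 0.000125% (7.39e-05 to 0.000197) and 0.000210% (0.000146 to 0.000294). The control intervals overlap one another, so the depth does not tell these libraries apart. Ranked by count among all genes of the table, IL17D stood at places 13460, 13860 and 12701 in the control libraries and at places 33, 32 and 35 in the IL17D-overexpressing libraries. The coefficient of variation of its CPM was 27.9% between control libraries, where counting alone gives 19.9%, and 2.13% between IL17D-overexpressing libraries, where counting alone gives 0.577%. The vector carries the tagged coding part. The native coding sequence is 18.3% of the 3327 bases of merged exons, so a level was given per merged exon length and per coding length. Per kb of merged exons, IL17D had 0.483 ± 0.135 RPKM (SD, n = 3) in control cells and 573 ± 12.2 RPKM (SD, n = 3) in IL17D-overexpressing cells. Per kb of coding sequence, the same counts gave 2.64 ± 0.738 and 3132 ± 66.6 (SD, n = 3).

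The tested genes around IL17D stayed uncalled. Within 250 kb of the gene the table listed 16 genes, of which 6 were tested, and their log2 fold changes ran from -0.11 to 0.23. The nearest was AL161772.1 (ENSG00000278291), an antisense gene that shares 1296 bases of exon with IL17D (39.0% of its merged exons) and none of its coding sequence. AL161772.1 had 19, 4 and 16 counts in control against 18, 16 and 12 in IL17D-overexpressing replicates. These groups overlap, and the estimate was 0.23 (adjusted p = 0.905 by edgeR). Whether the reads were counted by strand is not stated, so the few control reads of IL17D and those of AL161772.1 cannot be told apart where the genes overlap. Farther along the chromosome, IFT88, a component of ciliary transport, had 300, 228 and 287 counts in control and 280, 320 and 268 in IL17D-overexpressing libraries (log2 fold change 0.08, adjusted p = 0.830). XPO4, a nuclear transport receptor, had 898, 827 and 950 against 895, 1000 and 806 counts (log2 fold change 0.00, adjusted p = 0.996). LATS2, a kinase of the Hippo pathway, had 705, 676 and 652 against 715, 764 and 606 counts (log2 fold change 0.02, adjusted p = 0.948). CRYL1 and EEF1AKMT1 were at -0.11 (adjusted p = 0.844) and -0.10 (adjusted p = 0.903).

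**Figure D2:**
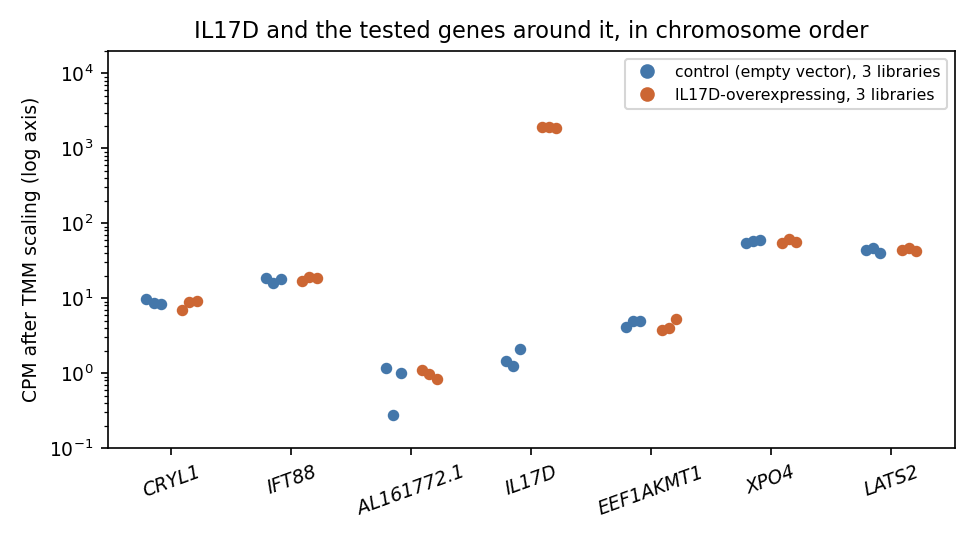
CPM after TMM scaling (log axis) of IL17D and the 6 tested genes within 250 kb of it, in chromosome order, with 1 point per library, control in blue and IL17D-overexpressing in orange. The orange points of IL17D stand above 1000 CPM, while both groups of every neighbouring gene overlap.

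The other ligands were at or near 0. IL17A (ENSG00000112115, chromosome 6, 52186375 to 52190638, plus strand) had 0 counts in every library, which over the 6 libraries together allows up to 0.0319 CPM. IL17F (chromosome 6, 52236681 to 52244537), which pairs with IL-17A in a heterodimer, and IL25 (chromosome 14, 23372809 to 23376403), the ligand of IL17RB, also had 0 counts in every library and the same limit. None of these 3 ligands was detectable at this depth in either group.

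IL17B (ENSG00000127743, chromosome 5, 149371324 to 149404202, minus strand), another ligand of IL17RB, had 0, 0 and 3 counts in control cells and 0 in each IL17D-overexpressing library. The counting interval of the ratio of IL17D-overexpressing to control cells ran from 0 to 2.40, so it holds both a loss and a rise. AC131025.1 shares 130 exon bases (10.7%) with IL17B and had 1, 0 and 1 against 0, 0 and 1 counts. IL17C (ENSG00000124391, chromosome 16, 88638591 to 88640473, plus strand) had no count in control cells and 0, 5 and 1 counts in IL17D-overexpressing replicates 1, 2 and 3. The groups overlap at 0. The counting interval of the ratio of IL17D-overexpressing to control cells began at 1.17 and had no upper bound. However, 5 of the 6 counts were in IL17D-overexpressing replicate 2, and without that library 1 count was left. IL17C and IL17D share no stretch of 31 bases.

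The receptor genes had measurable levels in both groups. IL17RA (ENSG00000177663, chromosome 22, 17084954 to 17115694, plus strand), the shared chain, had 616, 529 and 605 counts in control against 618, 668 and 548 in IL17D-overexpressing replicates. Scaled to depth these were 37.8, 36.5 and 37.5 CPM against 37.5, 40.5 and 38.3 CPM. The groups overlap. Means were 37.3 ± 0.701 CPM in control and 38.8 ± 1.58 CPM in IL17D-overexpressing cells (SD, n = 3 each). The log2 fold change was 0.06 (SE 0.0674, adjusted p = 0.831 by edgeR). The 95% interval of the fold, 0.946 to 1.14, leaves room for a small change in either direction. AC006946.1, a pseudogene on the other strand, overlaps IL17RA without sharing exon bases. It had 4, 3 and 4 counts in control and 0, 1 and 0 in IL17D-overexpressing replicates, too few to be tested.

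IL17RC (ENSG00000163702, chromosome 3, 9917074 to 9933630, plus strand), the partner of IL17RA for IL-17A and IL-17F, had 481, 458 and 483 counts in control and 466, 384 and 393 in IL17D-overexpressing replicates. Scaled to depth these were 29.5, 31.6 and 29.97 CPM against 28.3, 23.3 and 27.5 CPM. Every control library lay above every IL17D-overexpressing library, a separation in one direction or the other that 15.8% of all tested genes had. The mean was 30.4 ± 1.09 CPM (SD, n = 3) against 26.4 ± 2.67 CPM (SD, n = 3). The log2 fold change was -0.20 (SE 0.0819, 95% interval -0.37 to -0.04). It did not pass the test in edgeR, with an adjusted p = 0.289 against an unadjusted 0.0173. Replicate 2 of the IL17D-overexpressing cells was the lowest library, and without it the log2 fold change was -0.12 (adjusted p = 0.700). Across the alternatives tried, the adjusted p ran from 0.256 to 0.700. RNU6-882P, a small nuclear RNA gene on the other strand, overlaps IL17RC without sharing exon bases. It had 5, 5 and 6 counts in control and 3, 3 and 1 in IL17D-overexpressing replicates, too few to be tested.

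The chain IL17RB (ENSG00000056736, chromosome 3, 53846580 to 53865800, plus strand), which binds IL-25 and IL-17B, had 62, 58 and 73 counts in control and 64, 55 and 66 in IL17D-overexpressing replicates. Its groups overlap at 4.11 ± 0.374 CPM (SD, n = 3) and 3.95 ± 0.641 CPM (SD, n = 3), and the log2 fold change was -0.07 (SE 0.199, adjusted p = 0.947 by edgeR). The interval of the fold, 0.722 to 1.26, was wider than that of IL17RA, a gene with more counts. AC012467.2 shares 99 exon bases (3.26%) with IL17RB and had 60, 38 and 52 counts in control and 40, 72 and 63 in IL17D-overexpressing replicates, with no call either (adjusted p = 0.795).

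IL17RD (ENSG00000144730, chromosome 3, 57089982 to 57170306, minus strand) had 159, 182 and 140 counts in control and 176, 150 and 187 in IL17D-overexpressing replicates. Both groups spread by more than those of IL17RA, at 10.3 ± 1.997 CPM (SD, n = 3) and 10.95 ± 2.001 CPM (SD, n = 3), and they overlap. The log2 fold change was 0.08 (SE 0.139, adjusted p = 0.889 by edgeR), and the interval of the fold was 0.871 to 1.29.

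IL17RE, the chain for IL-17C, lies directly upstream of IL17RC on chromosome 3, on the same strand (ENSG00000163701, 9902612 to 9916402), with 671 bases between the end of one gene and the start of the other. The 250 bases before the first RefSeq start of each are printed to let the start regions of these adjoining genes be compared, from RefSeq's promoter table on GRCh38.p14, plus strand, with CG dinucleotides in capitals. The window of IL17RE (chr3:9902362-9902611) holds 2 CG at 50.4% GC, and that of IL17RC (chr3:9916848-9917097) holds 6 CG at 65.2% GC.
IL17RE: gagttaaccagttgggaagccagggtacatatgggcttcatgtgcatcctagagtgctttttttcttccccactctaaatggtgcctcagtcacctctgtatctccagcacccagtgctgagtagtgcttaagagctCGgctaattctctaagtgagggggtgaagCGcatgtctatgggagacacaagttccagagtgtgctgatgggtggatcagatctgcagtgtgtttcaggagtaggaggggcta
IL17RC: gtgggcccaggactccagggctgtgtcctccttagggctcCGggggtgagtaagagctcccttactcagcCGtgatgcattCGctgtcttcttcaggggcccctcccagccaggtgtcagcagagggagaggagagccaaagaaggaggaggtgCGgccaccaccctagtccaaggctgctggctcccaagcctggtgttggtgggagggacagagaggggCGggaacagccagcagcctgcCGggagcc
Despite their closeness the genes differed widely in level. IL17RE had 7, 11 and 15 counts in control and 7, 13 and 6 counts in IL17D-overexpressing replicates, and IL17RC had 30.4 to 70.8 times the RPKM of IL17RE across the 6 libraries. The IL17RE groups overlap at 0.707 ± 0.255 CPM (SD, n = 3) and 0.544 ± 0.212 CPM (SD, n = 3). Its log2 fold change was -0.36 (SE 0.495, adjusted p = 0.862 by edgeR), and the interval of the fold, 0.388 to 1.56, was the widest among the 6 uncalled members. Leaving out 1 library moved this estimate from -0.10 (without control replicate 3) to -0.73 (without IL17D-overexpressing replicate 2), with no call in either case.

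Of 13 genes read (the members, IL17F, IL25 and CD93), 9 had an entry in the promoter table, with 16 windows of 300 bases between them, each from 250 bases before to 50 after a start. IL17C, IL17RA, IL25 and CD93 had no entry. Over all 35116 promoters of that table the median was 14 CG and 58.7% GC. The richest family windows were those of IL17RB (42 CG) and one of IL17D (43 CG). Windows with few CG belonged to undetected and detected genes alike: the undetected ligands IL17A and IL17F had 6 and 4 CG, while IL17RC, the highest receptor by RPKM, had 8, IL17RE had 3 and 5, TRAF3IP2 had 7 and 9, and another window of IL17D had 6. The remaining windows of IL17D had 10 and 29. IL17B, a ligand near 0 counts, had 13 and 3 CG, and IL17RD had 25 and 16. Both IL17A and IL17F held the letters TATAAA, searched on either strand, which 11.5% of all promoters held. No other family window held them.

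CD93 (ENSG00000125810, chromosome 20, 23079349 to 23086340, minus strand) had no count in control cells and 0, 2 and 0 counts in IL17D-overexpressing replicates. That is under the limit of 3 counts, and the counting interval of the ratio ran from 0.186 upward without a bound. Both groups were thus at or under what a count of 0 allows, and neither a level nor a difference was detectable at this depth.

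TRAF3IP2 (ENSG00000056972, chromosome 6, 111556454 to 111606278, minus strand) encodes ACT1, the adaptor that the receptors share. It had 147, 158 and 182 counts in control and 150, 138 and 148 in IL17D-overexpressing replicates. Scaled to depth these were 9.03, 10.9 and 11.3 CPM against 9.10, 8.38 and 10.4 CPM, and the groups overlap. The mean was 10.4 ± 1.21 CPM (SD, n = 3) against 9.28 ± 0.999 CPM (SD, n = 3), with a log2 fold change of -0.17 (SE 0.130, adjusted p = 0.691 by edgeR) and an interval of the fold of 0.741 to 1.07. Leaving out 1 library moved the estimate between -0.26 and -0.10. TRAF3IP2-AS1, an antisense gene that spans part of TRAF3IP2 without sharing exon bases, had 45, 47 and 51 counts in control and 41, 48 and 36 in IL17D-overexpressing replicates (adjusted p = 0.813). Z97989.1 shares 123 exon bases (1.88%) with TRAF3IP2 and had at most 13 counts in a library.

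**Figure D3:**
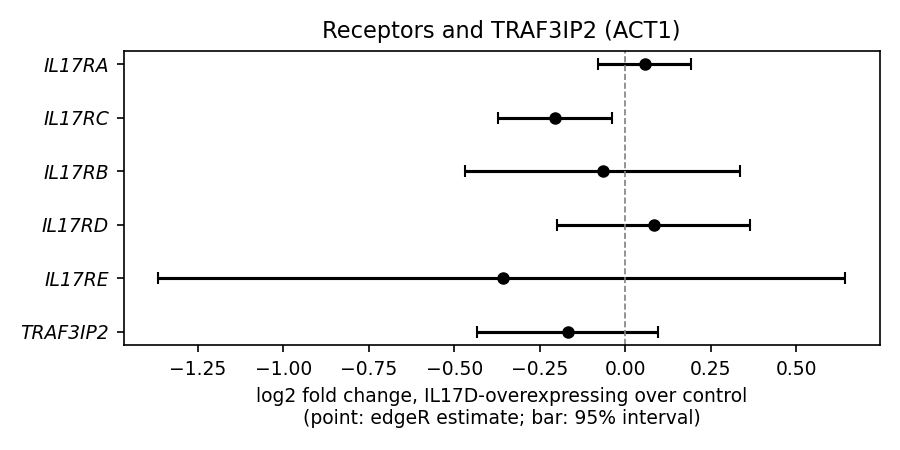
Log2 fold change of IL17D-overexpressing over control cells for the 5 receptors and TRAF3IP2; points are edgeR estimates from 3 libraries a group and bars are 95% intervals. The interval of IL17RC alone, -0.37 to -0.04, leaves out 0, without passing the adjusted test, and that of IL17RE is the widest.

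Levels of different genes were compared per kb of merged exons. Over the 6 libraries, the lowest, median and highest values were 5.13, 6.37 and 6.96 RPKM for IL17RC and 4.04, 4.17 and 4.49 RPKM for IL17RA. They were 1.28, 1.48 and 1.72 RPKM for TRAF3IP2, 1.10, 1.30 and 1.52 RPKM for IL17RB and 0.909, 1.07 and 1.37 RPKM for IL17RD. IL17RC therefore stood highest, at the 60.3 percentile of all tested genes by mean RPKM, IL17RA stood near the middle at the 50.4 percentile, and the other 3 lay between the 23.5 and 28.9 percentiles. The ranges of TRAF3IP2, IL17RB and IL17RD overlap across libraries. Within each library, however, every gene of this order was above the next: IL17RC over IL17RA by 1.14 to 1.72 times, IL17RA over TRAF3IP2 by 2.41 to 3.51 times, TRAF3IP2 over IL17RB by 1.04 to 1.26 times and IL17RB over IL17RD by 1.003 to 1.64 times. Each of these 4 neighbouring pairs kept its order in 6 of 6 libraries. An exact two-sided permutation test with sign flips gave p = 0.0312 for each (adjusted p = 0.0312 over the 4 pairs). This is the smallest p that 6 libraries can give. Because the order was set by the mean RPKM of these same libraries, both groups together, the test is no separate support for it. The order depends on the length used. The same counts of the whole gene were also divided by coding length alone, which raises genes with long noncoding exon parts. IL17RA has 2601 coding bases in 9036 of merged exons, and IL17RC has 2376 in 4540. By this measure the order was IL17RA (14.6), IL17RC (11.9), TRAF3IP2 (5.71), IL17RD (4.80) and IL17RB (2.67 CPM per coding kb). Thus 2 of the 4 neighbouring pairs kept their order, and both IL17RC with IL17RA and IL17RB with IL17RD turned around. IL17RE, with a mean of 9.83 counts, was too low for this comparison and had 0.151 ± 0.0544 RPKM in control and 0.116 ± 0.0453 RPKM in IL17D-overexpressing cells (SD, n = 3).

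**Figure D4:**
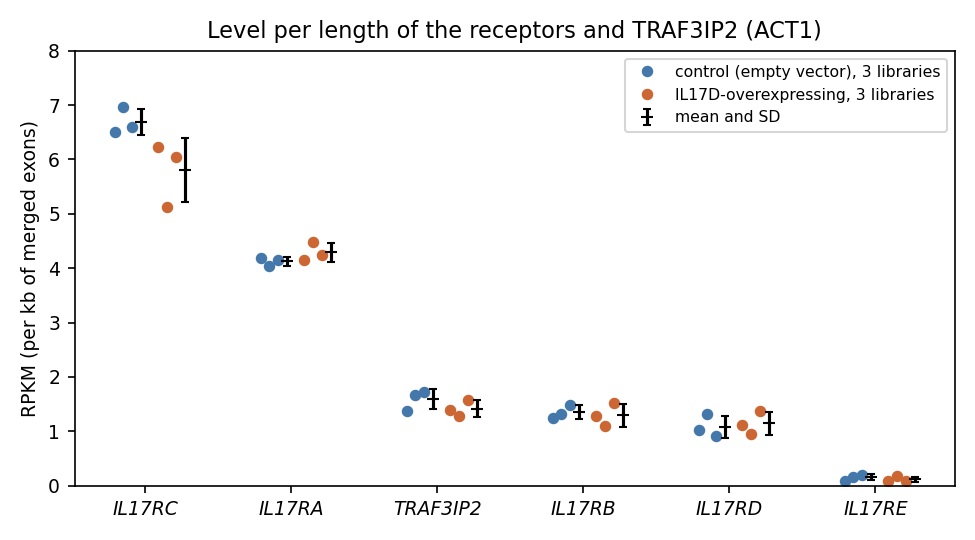
RPKM per kb of merged exons of the receptors and TRAF3IP2, with 1 point per library, control in blue and IL17D-overexpressing in orange, and black marks for the mean and SD of each group. IL17RC (6.69 ± 0.239 in control and 5.81 ± 0.588 in IL17D-overexpressing cells) and IL17RA (4.13 ± 0.0776 and 4.29 ± 0.175) stand above the others, and IL17RE lies near 0.

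The ratio of both chains of the IL-17A receptor was then read within each library. IL17RC over IL17RA was 1.55, 1.72 and 1.59 in control replicates 1, 2 and 3 and 1.50, 1.14 and 1.43 in IL17D-overexpressing replicates 1, 2 and 3. The mean ratio was 1.62 ± 0.0893 (SD, n = 3) against 1.36 ± 0.188 (SD, n = 3). The control ratios all lay above the others (p = 0.1, exact two-sided permutation test), and 3 libraries against 3 cannot give a p below 0.1. The ratio reuses the IL17RC values, in which the groups were already separate, so it adds no support of its own. For the balance of ligand to shared receptor chain, IL17D had 0.106, 0.0924 and 0.153 times the RPKM of IL17RA in the control libraries. In the IL17D-overexpressing libraries it had 137, 131 and 133 times. These ratios are per kb of merged exons, whereas the vector carries the tagged coding part, so their size depends on the length used. Whole-gene counts over coding length gave IL17D means of 2.64 in control and 3132 in IL17D-overexpressing cells, against 14.6 for IL17RA over all libraries. By either length, the message of the ligand went from below to far above that of the receptor chain.

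The genes with the pattern most like that of IL17RC, the receptor with the highest mean RPKM, were MYH14, CPLANE2 and PLEKHH2. Their root mean square differences from IL17RC were 0.0293, 0.0339 and 0.0367, in centred log2(CPM + 1) over the 6 libraries, where the median over all tested genes was 0.169. For IL17D itself the nearest genes were KRT87P, HIST2H4B and NTS at 4.11, 4.29 and 4.30, against a median of 4.77. The values were centred but not scaled, so the difference also counts the size of a change. These distances therefore do not tell whether any gene shares the pattern of IL17D over the libraries.

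Proteins that act next to ACT1 were read as a list of 38 genes: TRAF proteins, TAK1 and its partners, IκB kinases, ubiquitin ligase parts, RNA-binding proteins and the transcription factors at the end of the path. Of these, 37 were tested (SYK was too low), 1 was called up and 0 were called down by edgeR at an adjusted p under 0.05, beside 1.58% of all tested genes. At an unadjusted p under 0.05, 2 passed, both upward, beside 11.6% of all tested genes. The count is thus near or below the background, and no result about the list. The median log2 fold change was 0.018, with 25 higher and 12 lower. TRAF4, an adaptor that competes with TRAF6 for ACT1, had 2141, 1830 and 1775 counts in control and 2346, 2294 and 2059 in IL17D-overexpressing replicates. In CPM the groups did not overlap, and TRAF4 rose from 122.6 ± 11.1 CPM to 141.9 ± 2.42 CPM (SD, n = 3), or by 0.21 on the log2 scale (SE 0.0490, adjusted p = 0.0144). This call was lost without control replicate 3 (adjusted p = 0.128), without IL17D-overexpressing replicate 1 (0.0683) and without IL17D-overexpressing replicate 3 (0.107). TRAF6, the ubiquitin ligase that ACT1 recruits, had 204, 148 and 246 counts in control and 199, 175 and 198 in IL17D-overexpressing replicates, which overlap (log2 fold change -0.07, adjusted p = 0.910).

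A list of 30 genes known to rise in epithelial cells given IL-17A was read last. Of these, 11 were tested and 19 were too low, of which 6 had 0 counts in every library (CXCL6, IL6, IL19, S100A7, DEFB4A and DEFB4B). At an adjusted p under 0.05, 1 was called up and 2 were called down by edgeR, beside 1.58% of all tested genes. At an unadjusted p under 0.05, 4 were higher and 3 lower, beside 11.6% of all tested genes, and 7 had no overlap between the groups, beside 15.8%. These passed in both directions, and the median log2 fold change of the 11 was -0.01, with 5 higher and 6 lower. The list was chosen with earlier results of these data known, so these counts are no result about the list. The one that rose was PTGS2, the inducible cyclooxygenase, with 465, 400 and 444 counts in control and 518, 611 and 485 in IL17D-overexpressing replicates. Its level went from 27.9 ± 0.568 CPM to 34.1 ± 2.84 CPM (SD, n = 3), or up by 0.29 on the log2 scale (SE 0.0769, adjusted p = 0.0420). The PTGS2 call was lost in 7 of 12 alternatives, among them DESeq2 (adjusted p = 0.0788), limma voom (0.0513) and the fit without IL17D-overexpressing replicate 2 (0.268). The calls down were both gel-forming mucins, which make up airway mucus. MUC5AC had 2122, 2098 and 2248 counts in control and 1184, 1230 and 1127 in IL17D-overexpressing replicates, and fell by 0.88 on the log2 scale (SE 0.0490, adjusted p = 3.64e-15). MUC5B had 1028, 984 and 1080 against 848, 975 and 697 counts, and fell by 0.31 on the log2 scale (SE 0.0625, adjusted p = 0.00331), a call that was lost without IL17D-overexpressing replicate 3 (adjusted p = 0.0753). The other 8 tested genes of the list were not called. CCL2, which attracts monocytes, had 516, 416 and 473 counts in control and 595, 556 and 516 in IL17D-overexpressing replicates. In CPM its groups did not overlap, and the log2 fold change was 0.24 (SE 0.0734, adjusted p = 0.108). CCL20, which attracts lymphocytes that make IL-17A, had 22, 35 and 29 counts against 44, 49 and 47, also without overlap (log2 fold change 0.69, SE 0.268, adjusted p = 0.270). LCN2, an iron-binding protein of innate defence, had 31, 53 and 57 against 32, 27 and 24 counts, with a log2 fold change of -0.78 (SE 0.279, adjusted p = 0.199) and overlapping groups. Among the neutrophil-attracting chemokines, CXCL2 (0.09, adjusted p = 0.753) was higher and CXCL3 (-0.11, adjusted p = 0.776) lower without overlap. CXCL1 (-0.01, adjusted p = 0.975), CXCL5 (-0.01, adjusted p = 0.923) and CXCL8 (0.24, adjusted p = 0.225) had overlapping groups.

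**Figure D5:**
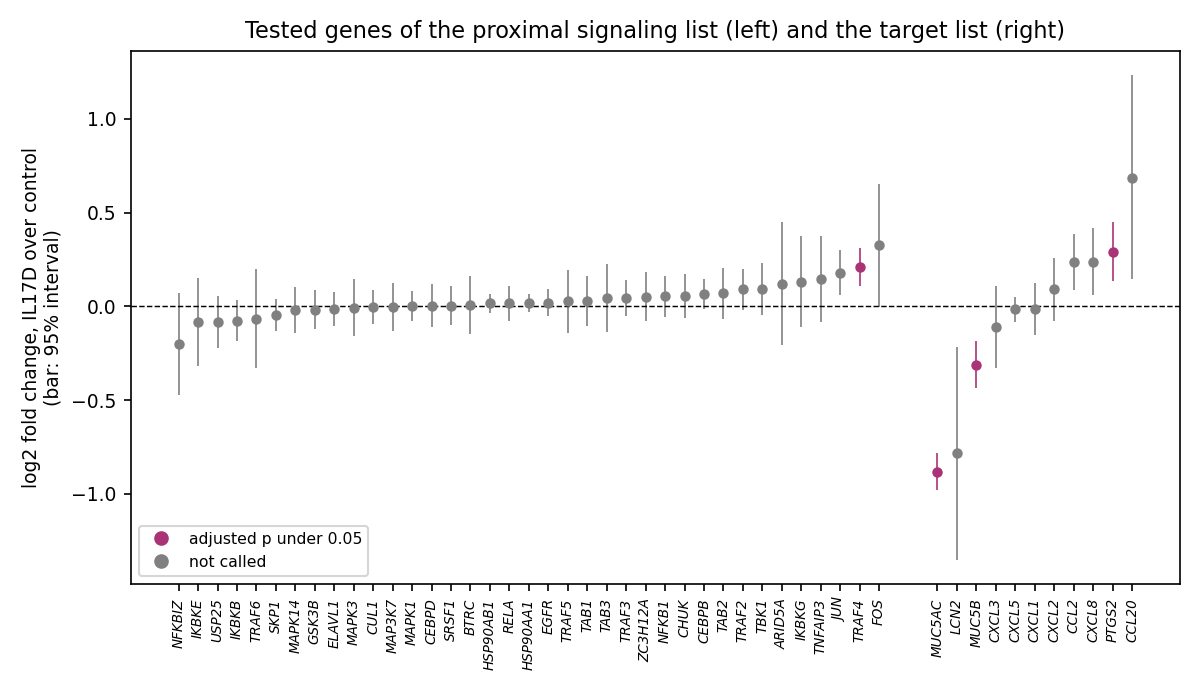
Log2 fold change of IL17D-overexpressing over control cells for the 37 tested genes of the proximal signaling list (left) and the 11 tested genes of the target list (right); points are edgeR estimates from 3 libraries a group, bars are 95% intervals, and purple marks an adjusted p under 0.05. Only TRAF4, PTGS2, MUC5AC and MUC5B are purple, and of these the mucins lie below 0.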

How the data were processed

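The authors deposited 1 table of counts, read counts per gene and library, with no normalization. All 6 library columns were used, and groups came from the sample labels. The submitters' processing notes name Bowtie2 and hg38. The counting tool, its strand setting and the versions are not given in the sources used here, and the methods and the labels name different Illumina sequencers. The coordinates in the table are those of GENCODE 29.

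Genes were kept by filterByExpr, scaled by TMM and compared with edgeR 4.0.16 (glmQLFit and glmQLFTest, R 4.3.3) over 15754 genes, with Benjamini-Hochberg adjustment. RPKM used the gene lengths of the table. DESeq2 1.42.0, limma 3.58.1 (voom), other filters and scaling, a replicate block and leaving out each library were alternatives. Members at few counts got exact counting intervals. Other steps used Python 3.11.15 and scipy 1.17.1. The fits were tested on simulated data. Named genes were the members, IL17F, IL25, CD93, called and some uncalled genes of both lists, and TRAF6. Genes overlapping members were named, except in the results AL512652.2 and AC097358.1, which had at most 2 counts in a library. Tested genes within 250 kb of IL17D were named too, with the 3 genes nearest in pattern to IL17D and to the highest receptor. The members and lists were chosen with earlier results of these data known.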

Additional observations from a re-analysis of the deposited data

How the results depend on the processing

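IL17D was called in all 12 alternatives, with log2 fold changes from 10.05 to 10.44, and no other member was called in any of them. Over all tested genes, 249 were called, against 187 with DESeq2's Wald test, 230 with limma voom and 145 to 267 when 1 library was left out (155 without IL17D replicate 1 and 145 without IL17D replicate 3). The replicate block, added to the fit, gave 272 called genes and the same 1 member. Same-numbered libraries did not deviate together (correlations of 0.0256, -0.0314 and -0.0228). The largest correlation between the groups was 0.0813, of control replicate 3 with IL17D replicate 2. Such values come from few libraries and cannot settle whether the numbers pair them. Leaving out 1 library gave 0 to 1 called genes in the proximal list (0 without control replicate 3, IL17D replicate 1 or IL17D replicate 3) and 1 to 3 in the target list (1 without IL17D replicate 3). The estimates of IL17RB ranged from -0.19 to 0.04 and turned upward without control replicate 3 (0.011) and without IL17D replicate 2 (0.042). Those of IL17RD ranged from -0.06 to 0.24 and turned downward without control replicate 3 (-0.028) and without IL17D replicate 3 (-0.057). TRAF6 ranged from -0.19 to 0.09 and turned upward without control replicate 3 (0.091) and without IL17D replicate 2 (0.025). The cause of these turns was not tested. With coding length, an alternative chosen after seeing the data, 2 of 4 neighbouring pairs kept their order of level. IL17RE had no value where at least 10 counts were asked for in every library. The depth limits IL17A, IL17B, IL17C, IL17F, IL25 and CD93 to levels or bounds, and IL17RE to an estimate with a wide interval.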

Other observations

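A few reads of low genes were gathered in IL17D-overexpressing replicate 2, which held 5 of the 6 IL17C counts, both CD93 counts and 6 of the 7 counts of MMP1, a collagenase of the target list. The same library had the lowest IL17RC level. Low genes also had their counts gathered in other libraries, and the 3 counts of IL17B were all in control replicate 3. SYK had 8, 0 and 1 counts in control and 6, 1 and 0 in IL17D-overexpressing replicates. The genes named here were picked after their values were seen, so they show no trait of a single library. What these genes share was not tested.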
